A study of Mus musculus with 32 samples.

Results

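XCT790 is a small molecule known to bind estrogen-related receptor alpha (ERR-alpha, gene Esrra) and to lower its activity. Here 4 RNA-seq libraries of mouse CD4+ T cells stimulated in its presence were set against 4 libraries of cells stimulated without it. These 8 of the 32 libraries in the series all carry the genotype label KO, for a knockout of Nr4a1, which encodes the nuclear receptor Nur77. They were chosen by their titles and paired within runs of 4 successive library numbers, called runs 1 to 4. Each run holds 1 XCT790, 1 CompA, 1 stimulated and 1 unstimulated library. Spleens and lymph nodes (axillary and inguinal) of C57BL/6J mice were the source, and no age is stated for the animals. Both groups received antibodies to CD3 and CD28 for 12 h, and the XCT790 group received the compound at 10 µg/ml. The other groups, with 4 libraries each, are KO-labelled cells stimulated with CompA, a compound known only by this code, at 10 µg/ml, KO-labelled unstimulated cells, and the WT counterparts of all 4 treatments. The sources used here state neither the allele behind the KO label, nor the vehicle of the stimulated group, nor which animals a library came from. In fits with run as a term, the p-values therefore measure the spread between libraries left after run differences, which may be technical.

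A resting CD4+ T cell that is engaged through its antigen receptor (CD3) and CD28 leaves quiescence, grows, builds ribosomes and mitochondria, secretes cytokines and enters the cell cycle. ERR-alpha is an orphan nuclear receptor whose known targets include enzymes of the tricarboxylic acid (TCA) cycle and subunits of the respiratory chain, and in activated T cells it has been described as a regulator of metabolism. XCT790 has also been described, in other cells, as an uncoupler of mitochondria. Lack of amino acids, endoplasmic reticulum (ER) stress and mitochondrial stress are known to converge on the transcription factor ATF4, which induces amino acid transporters, amino acid synthesis and the pseudokinase Trib3.

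The labels were checked first. On a scale shared by all 32 libraries (CPM, counts scaled to a common library size after TMM normalization), Nr4a1 (chr15:101253902-101274795, GRCm38.p6) stood at 198 to 363 CPM in KO-labelled cells with XCT790, against 162 to 187 CPM in WT. With CompA it stood at 415 to 786 CPM in KO-labelled cells, against 329 to 395 CPM in WT. The stimulated groups had 229 to 506 CPM in KO-labelled cells, against 130.5 to 207 CPM in WT, and the unstimulated ones 86.2 to 109.8 CPM in KO-labelled cells, against 45.2 to 96.0 CPM in WT. No treatment had lower Nr4a1 counts in its KO-labelled than in its WT-labelled group. A count per gene does not show whether an exon is missing, and the libraries are called KO-labelled throughout. The 8 libraries held 17050510 to 23687940 counts on genes and 13329 to 13844 genes with a count. The 8 CD4 T cell markers summed to 3140 to 3940 CPM with XCT790 and 3080 to 3880 CPM with stimulation alone. Markers of other cells were uneven between runs. The B cell list (14 genes) summed to 30.1 to 232 CPM with XCT790 and 37.9 to 306 CPM with stimulation alone. The erythroid and platelet list (11 genes) summed to 1.25 to 34.9 CPM with XCT790 and 4.01 to 248 CPM with stimulation alone, and the CD8 list (2 genes) to 28.2 to 50.8 and 29.2 to 60.0 CPM. In all 3 lists and in both groups the highest library was that of run 2, and within each of the 4 runs the XCT790 library was the lower one. The erythroid and platelet sum of run 2 was mostly Alas2, at 27 of 34.9 CPM with XCT790 and 236 of 248 CPM with stimulation alone. The globin genes of that list (Hbb-bs, Hbb-bt, Hba-a1 and Hba-a2) were at 0 in every library of both groups. The myeloid list (25 genes) summed to 161 to 250 CPM with XCT790 and 170 to 223 CPM with stimulation alone. The NK cell list (10 genes) was lower in every XCT790 library, at 23.7 to 33.2 CPM, than in any stimulated one, at 45.5 to 50.0 CPM. Of 7 tested NK list members 4 fell (Gzma, Prf1, Nkg7 and Eomes, which activated T cells can also express), and Klra8 was at 0 in both groups. None of these 4 was called without the run term (edgeR adjusted p = 0.0503 to 0.145). Gzma lost its call in 7 of 8 fits that left out a library (all but the stimulated library of run 2, adjusted p up to 0.116). Eomes lost it without the XCT790 library of run 1 or 3 or the stimulated library of run 1, 3 or 4 (up to 0.106), and Prf1 without the XCT790 library of run 1 or the stimulated library of run 4 (up to 0.0555). In bulk libraries fewer cells of a type and less RNA per cell cannot be told apart.

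XCT790 changed a broad set of transcripts by small amounts. In a fit of all 16 KO-labelled libraries with treatment and run as terms, 2788 of 12040 genes tested (23.2%) passed an adjusted p of 0.05 in edgeR's quasi-likelihood F test with Benjamini-Hochberg adjustment (4369 at an unadjusted p of 0.05). Of the 2788, 1284 (10.7% of genes tested) rose and 1504 (12.5%) fell. Counts of list members below are to be read beside these shares. The median size of a called change was 0.406 on the log2 scale, and 79 rises and 109 falls exceeded 2-fold. The 4 XCT790 and 4 stimulated libraries did not overlap for 1567 genes (13.0% of those tested), of which 1317 were called. Counts of calls depended on pairing: the same fit without the run term called 1100 genes. Leaving out the XCT790 library of run 3 brought the count to 1616, and leaving out any other of the 8 libraries gave up to 2604.

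The 10 largest rises among called genes of at least 10 CPM without overlap were Gpt2, Trib3, Slc6a9, Pck2, Sec24d, Maged1, Maged2, Lpin1, Slc1a4 and Trp53inp1. Lack of overlap was a condition of this rule, so for the 10 rises and the 10 falls below it is not a separate result. Sets of 4 values are TMM-scaled CPM of this fit in the order of runs 1 to 4. Sec24d (chr3:123264801-123365641), a coat protein of vesicles that leave the ER, had 31.9, 26.5, 38.6 and 35.0 CPM with XCT790, against 6.79, 9.67, 10.1 and 10.9 CPM with stimulation alone. Every XCT790 library was more than 2-fold above every stimulated one (log2 fold change 1.83 ± 0.11 SE, edgeR adjusted p = 5.69e-07). Pck2 (chr14:55540263-55550020), the mitochondrial phosphoenolpyruvate carboxykinase, had 48.2, 26.5, 55.7 and 45.8 CPM with XCT790, against 9.56, 16.8, 11.1 and 11.9 CPM with stimulation alone. The XCT790 libraries were all higher, with that of run 2 the lowest of them and the stimulated library of run 2 the highest of its group (log2 fold change 1.83 ± 0.21 SE, edgeR adjusted p = 6.23e-05). Gpt2, a mitochondrial alanine transaminase, had 11.1, 6.28, 13.2 and 12.1 CPM with XCT790, against 1.92, 3.14, 2.56 and 2.52 CPM with stimulation alone. Again no library overlapped and run 2 was lowest in the XCT790 group (log2 fold change 2.06 ± 0.20 SE, edgeR adjusted p = 2.47e-05). The glycine transporter gene Slc6a9 had 10.5, 8.01, 13.2 and 13.8 CPM with XCT790, against 2.09, 4.67, 2.77 and 2.25 CPM with stimulation alone. No overlap was seen (log2 fold change 1.99 ± 0.24 SE, edgeR adjusted p = 0.000106). Maged2, a member of the melanoma antigen family, had 9.05, 10.6, 12.3 and 11.0 CPM with XCT790, against 3.62, 4.03, 3.87 and 4.46 CPM with stimulation alone. The spread was narrow in both groups, which did not overlap (log2 fold change 1.42 ± 0.13 SE, edgeR adjusted p = 1.95e-05). Trp53inp1, a stress-induced gene known as a p53 target, had 463, 592, 494 and 430.1 CPM with XCT790, against 119, 416, 193 and 176 CPM with stimulation alone. Its stimulated library of run 2 was far above the other 3 and still below all XCT790 libraries (log2 fold change 1.24 ± 0.19 SE, edgeR adjusted p = 0.00055). Maged1, of the same family, averaged 10.2 ± 1.24 CPM with XCT790 and 3.43 ± 1.11 CPM with stimulation alone (SD, n = 4 each, as for all means below). Lpin1, a phosphatidate phosphatase, averaged 17.7 ± 4.02 CPM with XCT790 and 6.88 ± 3.00 CPM with stimulation alone. Slc1a4, a neutral amino acid transporter, averaged 23.6 ± 3.56 CPM with XCT790 and 10.3 ± 5.75 CPM with stimulation alone (log2 fold change 1.29 ± 0.33 SE, edgeR adjusted p = 0.011). Without the XCT790 library of run 3 its edgeR adjusted p was 0.0547, and without the run term 0.0606.

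The 10 largest falls by the same rule were Il3, Lif, Irf7, Isg15, Isg20, Zbtb32, Utf1, Orc1, Chchd10 and Amica1. Il3 (chr11:54265085-54267279), which encodes the hematopoietic cytokine interleukin-3, had 2.83, 0.598, 1.68 and 3.44 CPM with XCT790, against 14.1, 13.5, 6.74 and 8.21 CPM with stimulation alone. All XCT790 libraries were lower, with that of run 2 lowest (log2 fold change -2.34 ± 0.36 SE, edgeR adjusted p = 0.000978). Lif (chr11:4257568-4272514), the leukemia inhibitory factor, had 16.7, 20.4, 19.97 and 14.6 CPM with XCT790, against 47.2, 40.6, 65.8 and 53.6 CPM with stimulation alone. The groups were far apart (log2 fold change -1.51 ± 0.16 SE, edgeR adjusted p = 4.46e-05). Zbtb32, a zinc finger repressor induced on lymphocyte activation, had 6.49, 11.1, 8.86 and 9.24 CPM with XCT790, against 19.6, 27.0, 19.8 and 18.4 CPM with stimulation alone. The groups did not overlap, and run 2 was the highest in both (log2 fold change -1.25 ± 0.11 SE, edgeR adjusted p = 1.06e-05). Utf1, a chromatin-associated factor known from embryonic stem cells, had 20.3, 21.9, 16.6 and 15.0 CPM with XCT790, against 43.6, 52.7, 37.6 and 36.3 CPM with stimulation alone. No library overlapped (log2 fold change -1.20 ± 0.11 SE, edgeR adjusted p = 1.95e-05). Chchd10, a protein of the mitochondrial intermembrane space, had 22.5, 24.9, 18.0 and 20.3 CPM with XCT790, against 52.1, 50.6, 41.8 and 39.7 CPM with stimulation alone. It was lower in each run by a similar factor (log2 fold change -1.11 ± 0.12 SE, edgeR adjusted p = 4.23e-05). Amica1, an adhesion molecule of leukocytes, averaged 7.40 ± 2.42 CPM with XCT790 and 15.4 ± 4.61 CPM with stimulation alone. Irf7, Isg15 and Isg20 are interferon-stimulated genes and Orc1 is a replication gene; their values stand with those groups. All 10 falls were called without the run term in the fit of 16 libraries and with each of the 8 libraries left out in turn. In a fit of the 8 libraries alone without the run term, Isg20 and Amica1 were not called (edgeR adjusted p = 0.0518 and 0.0646).

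**Figure D1:**
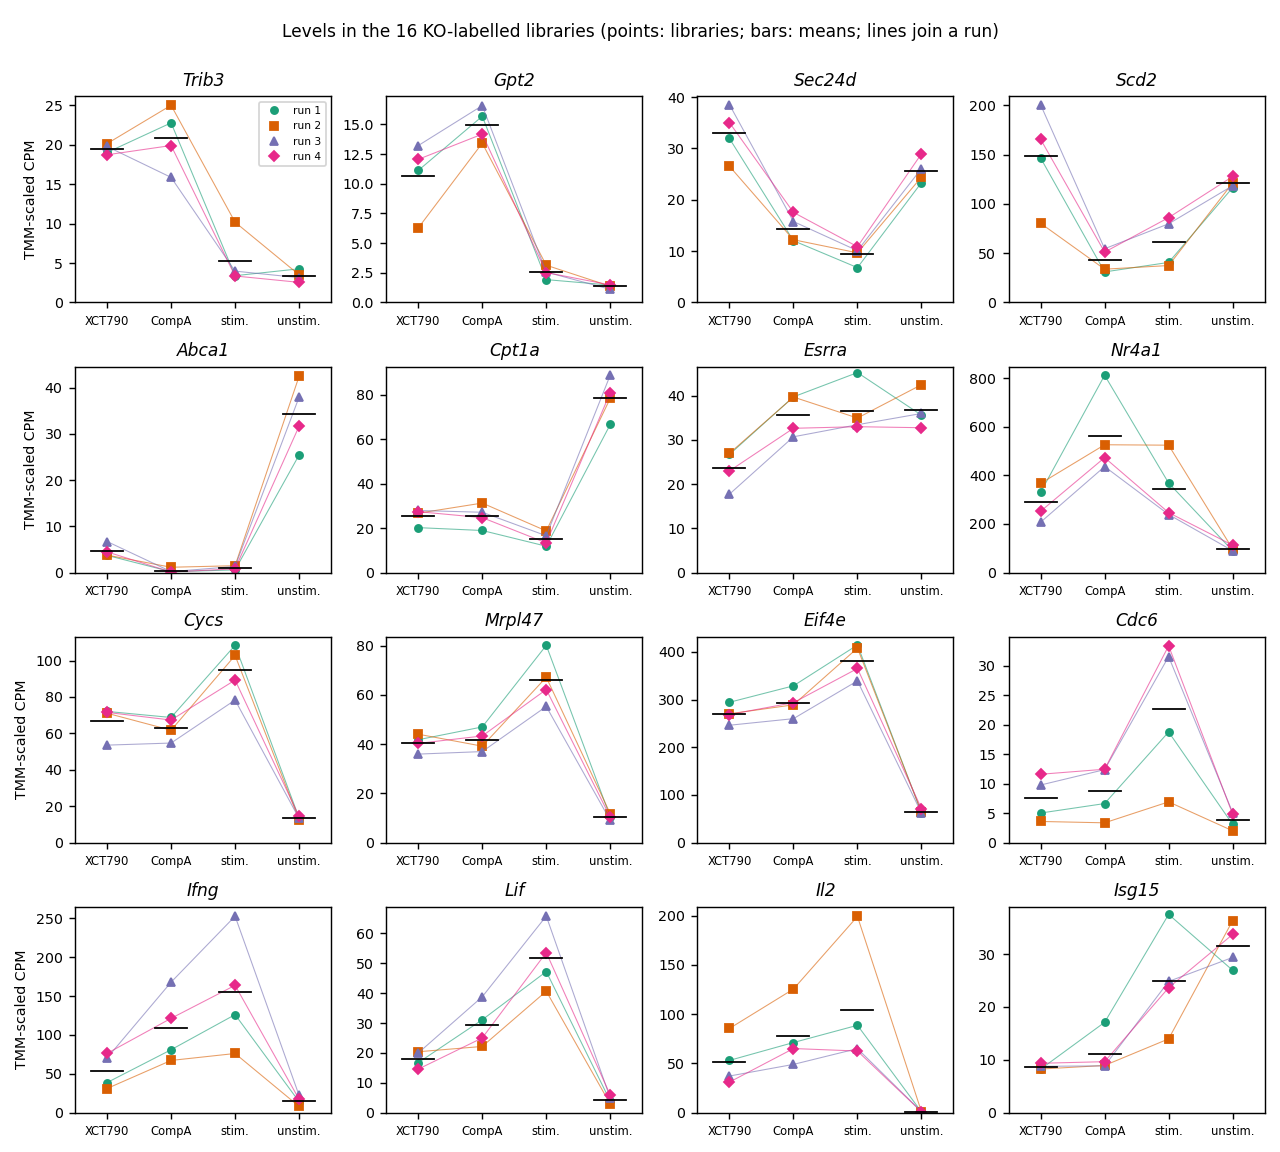
Levels of 16 genes in TMM-scaled CPM (y axis, linear, from 0) in the 16 KO-labelled libraries, by treatment (x axis: XCT790, CompA, stimulated, unstimulated); each point is a library, marked by run, lines join a run and bars are means of 4. Mean levels of Sec24d, Scd2 and Abca1 were above those of CompA and of stimulation alone with XCT790, those of Trib3, Gpt2 and Cpt1a were above stimulation alone with both compounds, and Lif, Ifng and Il2 were lowest with XCT790 among the 3 stimulated treatments.

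Genes of the ATF4 branch of the integrated stress response rose in part, and Trib3 was among the largest rises of all. Of 23 tested members, 9 rose, none fell and 14 did not pass, with a median log2 fold change of 0.38, against 0.01 over all genes tested. Without the run term 5 rose. Trib3 had 19.0, 20.1, 19.8 and 18.7 CPM with XCT790, against 3.39, 10.2, 3.97 and 3.36 CPM with stimulation alone. The XCT790 libraries agreed closely, whereas the stimulated library of run 2 stood well above the other 3 (log2 fold change 1.99 ± 0.23 SE, edgeR adjusted p = 6.36e-05). Chac1, which degrades glutathione, had 5.62, 3.35, 6.51 and 7.08 CPM with XCT790, against 0.622, 1.92, 0.627 and 0.574 CPM with stimulation alone. Run 2 again had the highest stimulated library, and the groups did not overlap (log2 fold change 2.68 ± 0.42 SE, edgeR adjusted p = 0.000585). No library overlapped for Cth, the cystathionine gamma-lyase of cysteine synthesis, at 4.10 ± 1.02 CPM with XCT790 and 0.933 ± 0.535 CPM with stimulation alone (log2 fold change 2.15 ± 0.34 SE, edgeR adjusted p = 0.000566). The same held for Eif4ebp1, an inhibitor of cap-dependent translation, at 60.6 ± 5.35 CPM with XCT790 and 33.5 ± 11.9 CPM with stimulation alone (log2 fold change 0.90 ± 0.15 SE, edgeR adjusted p = 0.000735). Ddit3, the pro-apoptotic factor CHOP, had 6.11, 19.1, 11.0 and 7.90 CPM with XCT790, against 4.52, 8.39, 4.44 and 3.36 CPM with stimulation alone. It was higher with XCT790 in each run, although the groups overlapped because run 2 was high in both (log2 fold change 1.06 ± 0.21 SE, edgeR adjusted p = 0.00273). Atf4 itself had 314, 421, 336 and 298 CPM with XCT790, against 298, 552, 304 and 290.4 CPM with stimulation alone. Its stimulated library of run 2 was the highest of the 8, and it was not called (log2 fold change -0.04 ± 0.15 SE, edgeR adjusted p = 0.858). Atf3, a stress-induced factor downstream of ATF4, averaged 32.0 ± 1.85 CPM with XCT790 and 42.6 ± 9.64 CPM with stimulation alone. It was lower with XCT790 in all 4 runs and not called (log2 fold change -0.38 ± 0.25 SE, edgeR adjusted p = 0.296).

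The sequences below are shown because ATF4 is known to bind the amino acid response element, here searched as TGATGNAA on both strands of RefSeq promoter windows of GRCm38.p6 (250 bases before to 50 after the start), which 9188 of the genes tested had. Each line gives bases around a match, in the gene's direction, with the match, or its reverse complement, in capitals.
Chac1 (chr2:119351019-119351086, + strand, 193 to 186 bases before the start): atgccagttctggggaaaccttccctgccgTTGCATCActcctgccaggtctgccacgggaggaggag
Asns (chr6:7693210-7693262, - strand, 23 to 16 bases before the start): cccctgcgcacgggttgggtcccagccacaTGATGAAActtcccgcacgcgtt
Slc7a11 (chr3:50443623-50443709, - strand, 66 to 59 and 47 to 40 bases before the start): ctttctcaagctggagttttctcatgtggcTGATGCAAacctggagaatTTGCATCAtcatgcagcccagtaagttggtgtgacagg
Pycr1 (chr11:120643814-120643881, - strand, 103 to 96 bases before the start): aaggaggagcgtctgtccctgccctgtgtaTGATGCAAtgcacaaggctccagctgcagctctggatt
Atf3 (chr1:191183406-191183473, - strand, 110 to 103 bases before the start): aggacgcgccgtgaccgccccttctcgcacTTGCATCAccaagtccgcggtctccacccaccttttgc
Got1 (chr19:43524670-43524737, - strand, 102 to 95 bases before the start): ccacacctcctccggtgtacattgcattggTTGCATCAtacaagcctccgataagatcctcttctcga
Chac1, Asns, Slc7a11 and Pycr1 rose, Atf3 was not called and Got1 fell, so the same letters stood in windows of genes of each outcome. Among windows of the ATF4 list, 5 of 20 tested members held the motif, and 4 of the 7 that rose and had a window (Chac1, Trib3, Asns and Slc7a11). So did 3 of 10 tested amino acid transporters with a window, Slc7a11 among them, and 3 of 16 enzymes of amino acid synthesis and breakdown, Asns among them. The share was 2.85% of all genes tested with a window, 4.26% of those that rose, 2.48% of those that fell and 3.97% of all 32851 windows.

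Amino acid transporters rose in part: 5 of 14 tested rose, none fell and 9 did not pass (median log2 fold change 0.13; 3 rose without the run term). Slc7a3, a cationic amino acid transporter, had 4.91, 5.14, 5.46 and 5.34 CPM with XCT790, against 0.17, 3.39, 0.314 and 1.10 CPM with stimulation alone. The XCT790 libraries were nearly equal, while the stimulated ones spread widely with run 2 on top (log2 fold change 2.31 ± 0.43 SE, edgeR adjusted p = 0.00166). Slc7a11, the cystine-glutamate exchanger, had 3.54, 7.47, 4.74 and 5.59 CPM with XCT790, against 1.30, 4.22, 2.66 and 2.74 CPM with stimulation alone. It was higher with XCT790 in all 4 runs, although run 2 made the groups overlap (log2 fold change 0.99 ± 0.20 SE, edgeR adjusted p = 0.00311, and 0.0899 without the run term). Slc38a2, a sodium-coupled neutral amino acid transporter, averaged 252 ± 36.9 CPM with XCT790 and 165 ± 34.4 CPM with stimulation alone (log2 fold change 0.60 ± 0.15 SE, edgeR adjusted p = 0.0101). Enzymes of amino acid synthesis and breakdown moved both ways, with 5 of 18 tested higher and 4 lower (2 and 3 without the run term; 3 higher without the XCT790 library of run 4). Asns, asparagine synthetase, had 21.1, 25.0, 26.4 and 33.3 CPM with XCT790, against 13.6, 25.2, 16.8 and 18.3 CPM with stimulation alone. It was higher in runs 1, 3 and 4 and level in run 2 (log2 fold change 0.53 ± 0.13 SE, edgeR adjusted p = 0.00933). Pycr1, the last enzyme of proline synthesis, had 7.36, 8.25, 8.24 and 8.47 CPM with XCT790, against 4.58, 7.30, 3.45 and 3.40 CPM with stimulation alone. The XCT790 libraries were above all stimulated ones, by least in run 2 (log2 fold change 0.86 ± 0.19 SE, edgeR adjusted p = 0.00455). Bckdha, of branched-chain keto acid breakdown, rose and averaged 35.2 ± 6.64 CPM with XCT790 and 20.7 ± 3.11 CPM with stimulation alone (edgeR adjusted p = 0.000988). Among the falls, Got1, the cytosolic aspartate transaminase, had 198, 151, 182 and 197 CPM with XCT790, against 221, 202, 227 and 258 CPM with stimulation alone. The lowest stimulated library was above the highest XCT790 one (log2 fold change -0.32 ± 0.08 SE, edgeR adjusted p = 0.0119). Bcat1, the cytosolic branched-chain transaminase, averaged 186 ± 18.8 CPM with XCT790 and 260.2 ± 46.4 CPM with stimulation alone (edgeR adjusted p = 0.0011). Of 13 serine and one-carbon enzymes, 2 rose and 3 fell (2 and 1 without the run term). The rises were Cth and Aldh1l2, a mitochondrial enzyme of folate metabolism, at 0.887 ± 0.45 CPM with XCT790 and 0.038 ± 0.026 CPM with stimulation alone. Among the falls, Shmt1, the cytosolic serine hydroxymethyltransferase, averaged 162 ± 16.5 CPM with XCT790 and 228 ± 15.4 CPM with stimulation alone (edgeR adjusted p = 0.000606). The serine synthesis enzyme Phgdh averaged 370.3 ± 47.8 CPM with XCT790 and 346 ± 56.7 CPM with stimulation alone and was not called (edgeR adjusted p = 0.422). Psat1, the next enzyme, averaged 498 ± 87.0 CPM with XCT790 and 475 ± 41.1 CPM with stimulation alone and was not called either (edgeR adjusted p = 0.721).

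Genes of protein folding in the ER and of the unfolded protein response rose in part: 8 of 23 tested rose, none fell and 15 did not pass (median log2 fold change 0.22). Herpud1, of ER-associated degradation, had 99.6, 79.8, 85.2 and 89.1 CPM with XCT790, against 53.7, 66.9, 47.1 and 51.9 CPM with stimulation alone. No overlap was seen (log2 fold change 0.70 ± 0.10 SE, edgeR adjusted p = 0.000253). The ubiquitin ligase gene Syvn1 averaged 49.1 ± 3.30 CPM with XCT790 and 35.6 ± 4.15 CPM with stimulation alone (log2 fold change 0.47 ± 0.08 SE, edgeR adjusted p = 0.000905). Xbp1, a transcription factor of the response, averaged 221 ± 11.3 CPM with XCT790 and 163 ± 8.68 CPM with stimulation alone (log2 fold change 0.44 ± 0.11 SE, edgeR adjusted p = 0.0106). The disulfide isomerase gene Pdia3 averaged 1026 ± 85.5 CPM with XCT790 and 829.8 ± 70.1 CPM with stimulation alone (log2 fold change 0.31 ± 0.05 SE, edgeR adjusted p = 0.00119). The chaperone Hspa5, the classical reporter of this response, averaged 1718 ± 118 CPM with XCT790 and 1611 ± 167 CPM with stimulation alone and was not called (log2 fold change 0.10 ± 0.06 SE, edgeR adjusted p = 0.274).

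Lysosome and autophagy genes rose in part and by small amounts, with 13 of 29 tested higher, 1 lower and 15 not called (median log2 fold change 0.23). Without the run term 4 were higher, and without the XCT790 library of run 1 or 3 or the stimulated library of run 4 it was 8. Ulk1, the kinase that starts autophagy, had 30.9, 39.0, 35.4 and 30.5 CPM with XCT790, against 17.4, 22.3, 26.6 and 21.6 CPM with stimulation alone. All XCT790 libraries were higher (log2 fold change 0.63 ± 0.09 SE, edgeR adjusted p = 0.000273). Npc1, which carries cholesterol out of lysosomes, averaged 33.4 ± 0.499 CPM with XCT790 and 25.6 ± 4.43 CPM with stimulation alone (log2 fold change 0.40 ± 0.09 SE, edgeR adjusted p = 0.00572). Map1lc3b, of the autophagosome membrane, averaged 77.0 ± 7.03 CPM with XCT790 and 59.2 ± 11.5 CPM with stimulation alone (log2 fold change 0.39 ± 0.09 SE, edgeR adjusted p = 0.00586). The lysosomal membrane protein gene Lamp1, at 285 ± 28.3 CPM with XCT790 and 274 ± 19.9 CPM with stimulation alone, was not called (edgeR adjusted p = 0.646). Nor was Tfeb, a regulator of lysosome genes, at 6.65 ± 1.66 CPM with XCT790 and 6.00 ± 0.979 CPM with stimulation alone (edgeR adjusted p = 0.376). In the list of mitochondrial fusion, fission and mitophagy, 4 of 13 tested rose and none fell (1 rose without the run term). The 4 belong to mitophagy or autophagy at large: Pink1, Bnip3l, Map1lc3b and Sqstm1 (edgeR adjusted p of Sqstm1 0.0138, and 0.0514 without the XCT790 library of run 2). Pink1, the kinase that marks damaged mitochondria, had 85.8, 107, 69.5 and 62.0 CPM with XCT790, against 52.4, 66.0, 33.8 and 34.2 CPM with stimulation alone. It was higher with XCT790 in every run, and the groups overlapped only because the stimulated library of run 2 was above the XCT790 library of run 4 (log2 fold change 0.82 ± 0.09 SE, edgeR adjusted p = 5.81e-05).

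Among lipid genes, some of synthesis, export and oxidation rose, and no member of these lists fell. Of 13 tested genes of fatty acid synthesis and desaturation 5 rose and none fell (median log2 fold change 0.47; 3 rose without the run term). Srebf1, the factor that drives this pathway, had 137, 120.3, 149.7 and 129 CPM with XCT790, against 81.6, 75.6, 97.0 and 90.4 CPM with stimulation alone. No library overlapped (log2 fold change 0.64 ± 0.08 SE, edgeR adjusted p = 0.000121). Scd2, a stearoyl-CoA desaturase, had 147, 80.3, 201 and 166 CPM with XCT790, against 40.6, 37.4, 79.8 and 86.1 CPM with stimulation alone. It was higher in each run, with runs 3 and 4 highest in both groups, which overlapped slightly (log2 fold change 1.30 ± 0.19 SE, edgeR adjusted p = 0.000318). Fasn, fatty acid synthase, averaged 857 ± 151 CPM with XCT790 and 609 ± 156 CPM with stimulation alone (log2 fold change 0.50 ± 0.12 SE, edgeR adjusted p = 0.00953). Acss2, a cytosolic acetyl-CoA synthetase, averaged 14.4 ± 3.61 CPM with XCT790 and 9.16 ± 2.18 CPM with stimulation alone (log2 fold change 0.65 ± 0.13 SE, edgeR adjusted p = 0.00262). Fads1, a fatty acid desaturase, averaged 33.0 ± 5.75 CPM with XCT790 and 23.3 ± 5.87 CPM with stimulation alone (edgeR adjusted p = 0.00705). Cholesterol synthesis and uptake moved less, with 3 of 24 tested higher, none lower and 21 not called (median log2 fold change 0.16), a share close to that of all genes (10.7% higher). Srebf2, the activator of the pathway, averaged 450.0 ± 36.3 CPM with XCT790 and 367 ± 24.9 CPM with stimulation alone (edgeR adjusted p = 0.00851). Insig1, which retains that activator in the ER, averaged 147 ± 23.7 CPM with XCT790 and 113 ± 13.1 CPM with stimulation alone (edgeR adjusted p = 0.0268). It lost its call without the run term (0.088) and without the XCT790 library of run 1, 3 or 4 or the stimulated library of run 1 or 3 (0.074 to 0.112). The synthesis enzymes Hmgcs1 and Sqle were not called (edgeR adjusted p = 0.334 and 0.656). With run 2 left out as a whole, 7 members of this list were higher.

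Of 7 tested genes of cholesterol export, a list that also holds the liver X receptor genes Nr1h2 and Nr1h3 and the ubiquitin ligase gene Mylip, 2 rose and none fell. Abca1, an exporter of cholesterol, had 3.71, 3.77, 6.71 and 4.46 CPM with XCT790, against 0.565, 1.47, 1.31 and 0.795 CPM with stimulation alone. All were low beside the unstimulated libraries, which averaged 34.4 ± 7.43 CPM, yet the XCT790 libraries were the higher in each run (log2 fold change 2.21 ± 0.30 SE, edgeR adjusted p = 0.000241). Abcg1, another exporter, had 16.4, 12.9, 22.7 and 17.4 CPM with XCT790, against 9.05, 5.89, 10.7 and 7.86 CPM with stimulation alone. Its groups did not overlap either (log2 fold change 1.04 ± 0.13 SE, edgeR adjusted p = 0.000121). Fatty acid oxidation had 6 of 20 tested higher, none lower and 14 not called (median 0.17; 4 higher without the run term). Cpt1a, the entry step of fatty acids into mitochondria, had 20.2, 26.7, 27.9 and 27.3 CPM with XCT790, against 11.8, 18.7, 16.5 and 13.3 CPM with stimulation alone. Run 1 was lowest in both groups, which did not overlap (log2 fold change 0.77 ± 0.09 SE, edgeR adjusted p = 0.000106). The acyl-CoA dehydrogenase gene Acadl averaged 53.4 ± 2.18 CPM with XCT790 and 42.0 ± 2.45 CPM with stimulation alone (log2 fold change 0.34 ± 0.07 SE, edgeR adjusted p = 0.00317). Acadvl, for very long chains, averaged 132 ± 10.3 CPM with XCT790 and 105 ± 7.75 CPM with stimulation alone (log2 fold change 0.33 ± 0.07 SE, edgeR adjusted p = 0.00329).

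Many ERR-alpha target, respiratory chain and mitochondrial ribosome genes fell, whereas genes of fatty acid oxidation and mitophagy, given above, had no fall. Esrra (chr19:6910977-6922048), the receptor that XCT790 is known to bind, had 26.7, 27.0, 17.7 and 23.0 CPM with XCT790, against 45.2, 34.9, 33.4 and 33.0 CPM with stimulation alone. Every XCT790 library was lower than every stimulated one (log2 fold change -0.64 ± 0.10 SE, edgeR adjusted p = 0.000591). It was the only called member of 13 tested receptors and regulators of mitochondrial biogenesis. Nrf1, a regulator of nuclear genes of mitochondria, averaged 50.4 ± 2.82 CPM with XCT790 and 57.8 ± 2.90 CPM with stimulation alone and was not called (edgeR adjusted p = 0.0665). Neither were the coactivator gene Ppargc1b, at 4.49 ± 0.653 CPM with XCT790 and 4.45 ± 1.04 CPM with stimulation alone, and Tfam, which packages mitochondrial DNA, at 129.6 ± 8.36 CPM with XCT790 and 136 ± 10.1 CPM with stimulation alone. Of 24 tested ERR-alpha target genes, 15 fell, none rose and 9 did not pass, with a median log2 fold change of -0.23 (4 fell without the run term, 9 without the XCT790 library of run 3). Cycs, cytochrome c, had 72.1, 71.1, 53.6 and 71.5 CPM with XCT790, against 108, 103, 78.3 and 89.3 CPM with stimulation alone. Run 3 was the lowest run in both groups and the groups did not overlap (log2 fold change -0.50 ± 0.08 SE, edgeR adjusted p = 0.000766). Idh3a, a subunit of mitochondrial isocitrate dehydrogenase, had 211, 183, 184 and 212 CPM with XCT790, against 304, 258, 249 and 263 CPM with stimulation alone. No library of one group reached the other (log2 fold change -0.44 ± 0.07 SE, edgeR adjusted p = 0.000534). The catalytic subunit of ATP synthase, Atp5b, had 2833, 2744, 2129.6 and 2697 CPM with XCT790, against 3714, 3766, 2989.9 and 3303 CPM with stimulation alone. All XCT790 libraries were lower, and run 3 was the lowest in both groups (log2 fold change -0.41 ± 0.08 SE, edgeR adjusted p = 0.00185). Sdhd, an anchor of succinate dehydrogenase, averaged 215 ± 31.4 CPM with XCT790 and 310.2 ± 50.1 CPM with stimulation alone (log2 fold change -0.53 ± 0.11 SE, edgeR adjusted p = 0.00319).

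The respiratory chain lists behaved alike in direction. Of 35 complex I subunits tested, 10 fell and none rose (median log2 fold change -0.21). The called share was 28.6%, all of it lower, where 23.2% of all genes were called and 12.5% were lower. None fell without the run term, and 4 to 6 fell without any one of the XCT790 libraries or the stimulated library of run 1. Ndufa5 had 74.4, 81.2, 56.3 and 74.0 CPM with XCT790, against 125, 130.1, 74.9 and 90.9 CPM with stimulation alone. Each run fell, and the groups overlapped only because the XCT790 library of run 2 was above the stimulated library of run 3 (log2 fold change -0.54 ± 0.09 SE, edgeR adjusted p = 0.00117). Of 41 subunits of complexes II to V, 17 fell and none rose (median log2 fold change -0.25), and 4 fell without the run term. Leaving out a library gave 7 (XCT790, run 3), 10 (XCT790 or stimulated, run 1) or 11 (XCT790, run 4, or stimulated, run 2). Cyc1, cytochrome c1, averaged 292 ± 44.3 CPM with XCT790 and 419.5 ± 76.7 CPM with stimulation alone (log2 fold change -0.52 ± 0.08 SE, edgeR adjusted p = 0.000709). In the TCA cycle and pyruvate entry, 11 of 25 tested fell and 1 rose (4 and 1 without the run term). Without the XCT790 library of run 3 the falls were 6, and without that of run 1 or 2 or the stimulated library of run 3 they were 7. Dlat, of the pyruvate dehydrogenase complex, averaged 108 ± 8.83 CPM with XCT790 and 141 ± 9.86 CPM with stimulation alone (log2 fold change -0.39 ± 0.06 SE, edgeR adjusted p = 0.000482), without overlap. Dld, of the same complex, averaged 185 ± 8.90 CPM with XCT790 and 231 ± 8.10 CPM with stimulation alone (log2 fold change -0.32 ± 0.06 SE, edgeR adjusted p = 0.00217). The gene that rose was Pdk2, a kinase that inhibits that complex, at 3.71 ± 0.472 CPM with XCT790 and 2.00 ± 0.472 CPM with stimulation alone (log2 fold change 0.90 ± 0.17 SE, edgeR adjusted p = 0.00173).

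The next sequences are shown because ERR-alpha is known to bind AAGGTCA, searched here on both strands and shown in capitals as it or its reverse complement. They hold that motif in the promoter windows of a gene of the respiratory chain that fell and of one that was not called.
Atp5g3 (chr2:73911342-73911408, - strand, 52 to 46 bases before the start): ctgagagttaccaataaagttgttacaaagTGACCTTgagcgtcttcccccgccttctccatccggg
Ndufb4 (chr16:37654387-37654453, - strand, 55 to 49 bases before the start): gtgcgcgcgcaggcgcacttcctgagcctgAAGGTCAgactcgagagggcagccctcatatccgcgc
Atp5g3, the c-ring subunit of ATP synthase, had 672, 581, 466 and 618 CPM with XCT790, against 906, 880.1, 639 and 750.0 CPM with stimulation alone. It was lower in each run, with a slight overlap between runs (log2 fold change -0.44 ± 0.11 SE, edgeR adjusted p = 0.00763). Ndufb4, of complex I, had 62.4, 61.8, 44.2 and 57.1 CPM with XCT790, against 103, 80.8, 49.3 and 57.9 CPM with stimulation alone. It was lower in runs 1 to 3, nearly level in run 4 and not called (log2 fold change -0.33 ± 0.13 SE, edgeR adjusted p = 0.0718). The motif stood in the windows of 3 of 20 ERR-alpha targets and 5 of 31 subunits of complexes II to V, which share Sdhd and Atp5g3, and of 2 of 31 complex I subunits and 1 of 22 genes of the TCA cycle and pyruvate entry. Of the 8 complex I and 9 TCA genes that fell and had a window, 0 held it. It stood in 3.89% of all genes tested with a window, in 4.61% of those that fell, 3.15% of those that rose and 4.72% of all windows.

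Many genes for proteins of the mitochondrial ribosome fell. Of 74 tested, 44 fell, none rose and 30 did not pass, with a median log2 fold change of -0.30 (20 fell without the run term, and 29 without the stimulated library of run 1). Mrpl47, of the large subunit, had 41.8, 44.1, 36.0 and 40.3 CPM with XCT790, against 80.2, 67.2, 55.3 and 62.2 CPM with stimulation alone. The XCT790 libraries lay close together and below all stimulated ones (log2 fold change -0.70 ± 0.08 SE, edgeR adjusted p = 6.36e-05). Mrps22, of the small subunit, averaged 72.7 ± 8.20 CPM with XCT790 and 107 ± 18.0 CPM with stimulation alone (log2 fold change -0.55 ± 0.08 SE, edgeR adjusted p = 0.000237). Mrpl3, of the large subunit, averaged 152 ± 19.7 CPM with XCT790 and 219 ± 37.9 CPM with stimulation alone (log2 fold change -0.52 ± 0.08 SE, edgeR adjusted p = 0.000374). Mrpl18 averaged 97.9 ± 8.12 CPM with XCT790 and 134 ± 13.4 CPM with stimulation alone (log2 fold change -0.45 ± 0.06 SE, edgeR adjusted p = 0.000301). Of 14 mitochondrial chaperones and proteases, 6 fell and 1 rose. Hspd1, the chaperonin of the matrix, had 1338, 1202, 1270.0 and 1358 CPM with XCT790, against 1667, 1526, 1791 and 1782 CPM with stimulation alone. Its groups did not overlap (log2 fold change -0.39 ± 0.06 SE, edgeR adjusted p = 0.000306). The matrix protease gene Clpp averaged 80.4 ± 10.6 CPM with XCT790 and 118 ± 26.1 CPM with stimulation alone (log2 fold change -0.55 ± 0.10 SE, edgeR adjusted p = 0.00112).

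Genes for making cytosolic ribosomes and starting translation fell as well, while the ribosomal proteins themselves mostly did not pass the test. Of 27 ribosome biogenesis genes, 18 fell, none rose and 9 did not pass (median log2 fold change -0.28; 12 fell without the run term). Wdr12, of the complex that processes the large subunit's RNA, had 175, 166, 145 and 173 CPM with XCT790, against 267, 222, 218 and 233 CPM with stimulation alone. All XCT790 libraries were lower (log2 fold change -0.51 ± 0.07 SE, edgeR adjusted p = 0.000302). Rrp9, which acts in ribosomal RNA processing, averaged 239.5 ± 32.9 CPM with XCT790 and 330.0 ± 55.5 CPM with stimulation alone (log2 fold change -0.46 ± 0.06 SE, edgeR adjusted p = 0.000265). Nop58, of the particles that modify ribosomal RNA, averaged 591 ± 22.3 CPM with XCT790 and 797 ± 74.9 CPM with stimulation alone (log2 fold change -0.43 ± 0.07 SE, edgeR adjusted p = 0.000553). Of 33 translation initiation factors, 17 fell and none rose (median log2 fold change -0.22, with 11 lower without the run term and also without the XCT790 library of run 3). Eif4e, the cap-binding protein, had 294, 270.1, 246 and 269 CPM with XCT790, against 414, 408, 339 and 365 CPM with stimulation alone. Its groups did not overlap (log2 fold change -0.50 ± 0.07 SE, edgeR adjusted p = 0.000184). Eif2s1, the alpha subunit of eIF2 whose phosphorylation starts the integrated stress response, averaged 475 ± 57.5 CPM with XCT790 and 660.0 ± 87.7 CPM with stimulation alone (log2 fold change -0.48 ± 0.07 SE, edgeR adjusted p = 0.000509). Of 81 cytosolic ribosomal proteins tested, 1 rose and 2 fell, and the median log2 fold change was 0.03. The 2 that fell, Rpl7l1 and Rps27l, are variants of the core proteins, and Rps27l lost its call without the XCT790 library of run 1, 3 or 4 or the stimulated library of run 1 or 2 (edgeR adjusted p = 0.0501 to 0.0736). Many of these genes have near-identical pseudogenes that can take or lose reads, so their counts are uncertain. Among 20 aminoacyl-tRNA synthetases 3 rose and 6 fell (1 and 2 without the run term, and 3 falls without the XCT790 library of run 3). Sars, for serine, was higher (log2 fold change 0.26, edgeR adjusted p = 0.00581), and Rars, for arginine, was lower (-0.25, adjusted p = 0.0026). The proteasome had 8 of 38 tested lower and 1 higher, a called share of 23.7%, against 23.2% of all genes. The falls were 4 without the run term or without the XCT790 library of run 3, and 5 without the XCT790 library of run 4 or the stimulated library of run 2. Psmd6, of its regulatory particle, averaged 230.2 ± 22.8 CPM with XCT790 and 297 ± 32.6 CPM with stimulation alone (log2 fold change -0.37 ± 0.06 SE, edgeR adjusted p = 0.000981).

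Cell cycle genes were lower with XCT790. Of 31 DNA replication genes tested, 24 fell, none rose and 7 did not pass, with a median log2 fold change of -0.55 (7 fell without the run term). Cdc6, which loads the replicative helicase, had 5.02, 3.59, 9.77 and 11.6 CPM with XCT790, against 18.8, 6.91, 31.6 and 33.4 CPM with stimulation alone. The stimulated library of run 2 was far below the other 3, and within each run the XCT790 library was the lower (log2 fold change -1.55 ± 0.14 SE, edgeR adjusted p = 1.38e-05, and 0.0576 without the run term). Mcm10, which helps to activate that helicase, had 3.87, 2.39, 5.80 and 6.67 CPM with XCT790, against 16.4, 3.52, 24.2 and 21.2 CPM with stimulation alone. Run 2 was again the lowest in both groups (log2 fold change -1.70 ± 0.19 SE, edgeR adjusted p = 6.06e-05). Orc1, the largest subunit of the origin recognition complex, had 9.49, 10.3, 11.9 and 12.6 CPM with XCT790, against 27.9, 13.2, 32.1 and 31.6 CPM with stimulation alone. Here the groups did not overlap (log2 fold change -1.18 ± 0.17 SE, edgeR adjusted p = 0.000296). Rrm2, of the reductase that makes deoxynucleotides, averaged 16.4 ± 6.77 CPM with XCT790 and 36.6 ± 17.8 CPM with stimulation alone (log2 fold change -1.12 ± 0.13 SE, edgeR adjusted p = 6.36e-05). Orc6, of the same complex as Orc1, averaged 51.5 ± 6.23 CPM with XCT790 and 88.6 ± 15.6 CPM with stimulation alone (log2 fold change -0.78 ± 0.09 SE, edgeR adjusted p = 6.23e-05).

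Of 22 mitosis genes, 15 fell and none rose (median log2 fold change -0.69). No member fell without the run term. Leaving out the XCT790 libraries of runs 1, 3 and 4 gave 5, 4 and 7 falls, and leaving out the stimulated libraries of these runs gave 8, 8 and 5. Ccna2, cyclin A2, had 8.50, 3.71, 11.0 and 14.3 CPM with XCT790, against 18.4, 4.16, 23.0 and 28.0 CPM with stimulation alone. Runs 1, 3 and 4 fell by a similar factor, and run 2 was low in both groups (log2 fold change -0.91 ± 0.18 SE, edgeR adjusted p = 0.00268). Cdk1, the mitotic kinase, averaged 7.46 ± 3.11 CPM with XCT790 and 16.5 ± 8.12 CPM with stimulation alone (log2 fold change -1.10 ± 0.13 SE, edgeR adjusted p = 0.000108). Among 20 G1 cyclins, their partners and inhibitors, 9 fell and 1 rose (1 and 1 without the run term, and 5 falls without the XCT790 or the stimulated library of run 4). Ccne1, cyclin E1, had 11.0, 5.44, 10.6 and 13.0 CPM with XCT790, against 24.4, 9.99, 21.5 and 24.3 CPM with stimulation alone. It was lower in each run and overlapped because the stimulated library of run 2 was low (log2 fold change -0.99 ± 0.14 SE, edgeR adjusted p = 0.000229, and 0.0528 without the run term). Cdkn1b, the inhibitor p27, was the one that rose, with 44.8, 51.0, 49.3 and 48.2 CPM with XCT790, against 27.4, 42.6, 27.7 and 28.9 CPM with stimulation alone. The groups did not overlap, and the stimulated library of run 2 was again nearest to the XCT790 libraries (log2 fold change 0.62 ± 0.11 SE, edgeR adjusted p = 0.00115). Within runs, the median log2 ratio of CPM + 1 over the mitosis list was -0.82, -0.70 and -0.71 in runs 1, 3 and 4 and 0.11 in run 2. Over the replication list it was -0.59, -0.64 and -0.51 in runs 1, 3 and 4 and -0.21 in run 2. Run 2 also held the highest B cell, CD8 and erythroid marker sums given above. The part of these cells in the values of run 2 was not tested. With run 2 left out as a whole, 16 mitosis and 28 replication genes fell.

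**Figure D2:**
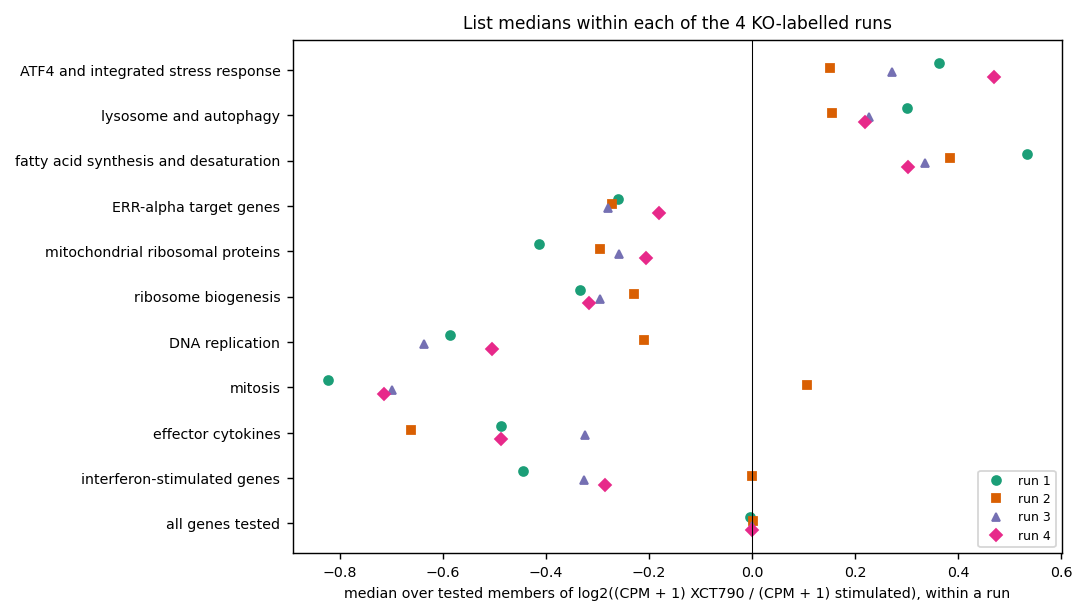
Median over the tested members of a list of the log2 ratio of (CPM + 1) with XCT790 to (CPM + 1) with stimulation alone (x axis), within each of the 4 runs of KO-labelled libraries (markers), for 10 lists and for all genes tested (y axis). The ERR-alpha target, mitochondrial ribosomal, ribosome biogenesis and cytokine lists lie below 0 in all 4 runs, and the mitosis list lies above 0 in run 2.

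Cytokine transcripts, the secreted output of activated CD4+ T cells, were lower with XCT790 in part. Of 19 tested, 9 fell, 1 rose and 9 did not pass, with a median log2 fold change of -0.59 (4 fell without the run term). Ifng (chr10:118441046-118445894), the defining cytokine of Th1 cells, had 38.7, 31.1, 70.3 and 76.2 CPM with XCT790, against 126, 76.1, 253 and 164 CPM with stimulation alone. Each run was lower by more than 2-fold, and the highest XCT790 library was level with the lowest stimulated one (log2 fold change -1.48 ± 0.11 SE, edgeR adjusted p = 4.34e-06). Il2 (chr3:37120713-37125954), the T cell growth factor, had 53.1, 85.5, 37.2 and 31.0 CPM with XCT790, against 88.8, 199, 65.1 and 62.6 CPM with stimulation alone. Each run was lower, and the groups overlapped because run 2 was the highest in both (log2 fold change -0.95 ± 0.14 SE, edgeR adjusted p = 0.000467, and 0.113 without the run term). Lta, lymphotoxin alpha, had 62.0, 87.0, 58.4 and 50.5 CPM with XCT790, against 114, 158, 94.1 and 71.8 CPM with stimulation alone. It was lower in each run with some overlap between runs (log2 fold change -0.74 ± 0.12 SE, edgeR adjusted p = 0.000711). Tnf, tumor necrosis factor, averaged 41.3 ± 13.2 CPM with XCT790 and 57.5 ± 28.1 CPM with stimulation alone (log2 fold change -0.43 ± 0.15 SE, edgeR adjusted p = 0.0484). Il10, an anti-inflammatory cytokine, averaged 9.61 ± 2.39 CPM with XCT790 and 14.5 ± 5.08 CPM with stimulation alone and was not called (edgeR adjusted p = 0.0897). The gene that rose was Il16, a chemoattractant that resting T cells store, with 158, 129, 183 and 162 CPM with XCT790, against 108, 71.5, 129.9 and 107 CPM with stimulation alone. It was higher in each run, and run 2 was lowest in both groups (log2 fold change 0.61 ± 0.11 SE, edgeR adjusted p = 0.00112).

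Of 19 tested chemokines and their receptors, 7 fell and 1 rose (1 and none without the run term). Without the XCT790 library of run 1 or 4 or the stimulated library of run 2 or 3 the falls were 4. Ccl3, which attracts myeloid cells, averaged 35.8 ± 10.4 CPM with XCT790 and 73.3 ± 24.3 CPM with stimulation alone and did not overlap (log2 fold change -1.02 ± 0.19 SE, edgeR adjusted p = 0.00193). Xcl1, which attracts cross-presenting dendritic cells, averaged 44.3 ± 28.4 CPM with XCT790 and 100.1 ± 85.2 CPM with stimulation alone (log2 fold change -1.07 ± 0.25 SE, edgeR adjusted p = 0.00681). Ccr7, the lymph node homing receptor, was the member that rose, with 1828, 1406, 1449 and 1617 CPM with XCT790, against 1212, 951, 1119.6 and 1235 CPM with stimulation alone. Each XCT790 library exceeded every stimulated one (log2 fold change 0.48 ± 0.09 SE, edgeR adjusted p = 0.00145, and 0.0569 without the run term). Of 15 Th1 genes, 6 fell and none rose (median log2 fold change -0.31, with 2 lower without the run term). Gzmb, granzyme B, had 10.3, 11.2, 13.6 and 31.5 CPM with XCT790, against 33.6, 23.9, 44.8 and 81.2 CPM with stimulation alone. It was lower in each run, with run 4 the highest in both groups and an overlap between runs (log2 fold change -1.46 ± 0.25 SE, edgeR adjusted p = 0.000947). Il12rb1, a subunit of the interleukin-12 receptor, averaged 64.2 ± 14.6 CPM with XCT790 and 109 ± 31.3 CPM with stimulation alone (log2 fold change -0.75 ± 0.13 SE, edgeR adjusted p = 0.000935). Tbx21, the master regulator T-bet, averaged 75.0 ± 31.6 CPM with XCT790 and 91.5 ± 34.5 CPM with stimulation alone and was not called (log2 fold change -0.31 ± 0.27 SE, edgeR adjusted p = 0.432). The NK cell marker sum, which shares genes such as Prf1 and Gzma with effector T cells, was lower in the same libraries, and its part in the Th1 list was not tested.

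Of 12 follicular helper genes, 5 fell and none rose (1 fell without the run term, and 3 without the XCT790 library of run 2 or 4 or the stimulated library of run 2). Sh2d1a, the adaptor SAP, averaged 34.7 ± 6.06 CPM with XCT790 and 59.4 ± 16.9 CPM with stimulation alone (log2 fold change -0.76 ± 0.14 SE, edgeR adjusted p = 0.00146). The transcription factor gene Bcl6 averaged 18.8 ± 3.53 CPM with XCT790 and 13.5 ± 5.79 CPM with stimulation alone and was not called (log2 fold change 0.53 ± 0.20 SE, edgeR adjusted p = 0.0698). Of 15 genes of the interleukin-2 receptor, STAT5 and SOCS proteins 3 rose and 3 fell (1 and 1 without the run term). Cish, a feedback inhibitor induced by STAT5, had 103, 117, 122 and 143 CPM with XCT790, against 162, 165, 211 and 235 CPM with stimulation alone. No library overlapped (log2 fold change -0.66 ± 0.11 SE, edgeR adjusted p = 0.000754). The receptor chain Il2ra averaged 517 ± 76.0 CPM with XCT790 and 556 ± 130.0 CPM with stimulation alone and was not called (log2 fold change -0.09 ± 0.09 SE, edgeR adjusted p = 0.519).

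Interferon-stimulated genes fell in part. Of 27 tested, 11 fell, none rose and 16 did not pass, with a median log2 fold change of -0.68 (7 fell without the run term). Isg15, a ubiquitin-like modifier, had 8.23, 8.25, 8.77 and 9.34 CPM with XCT790, against 37.5, 14.0, 24.8 and 23.6 CPM with stimulation alone. The XCT790 libraries were nearly equal, and the stimulated library of run 2 was the nearest to them (log2 fold change -1.49 ± 0.23 SE, edgeR adjusted p = 0.000491). Irf7, the factor that amplifies interferon production, had 4.25, 4.36, 5.56 and 5.54 CPM with XCT790, against 18.4, 5.76, 18.4 and 15.1 CPM with stimulation alone. The stimulated library of run 2 was again the nearest to the XCT790 libraries, and the groups did not overlap (log2 fold change -1.51 ± 0.28 SE, edgeR adjusted p = 0.00158). Rsad2, the antiviral protein viperin, had 0.763, 2.63, 1.63 and 2.31 CPM with XCT790, against 3.39, 15.4, 4.70 and 4.86 CPM with stimulation alone. Here run 2 was by far the highest of the stimulated libraries, and the groups did not overlap (log2 fold change -1.82 ± 0.21 SE, edgeR adjusted p = 6.23e-05, and 0.0637 without the run term). Isg20, an antiviral exonuclease, had 3.49, 5.98, 5.03 and 4.16 CPM with XCT790, against 10.3, 19.8, 9.77 and 7.95 CPM with stimulation alone. Each XCT790 library was lower than all stimulated ones (log2 fold change -1.31 ± 0.17 SE, edgeR adjusted p = 0.000194). Within runs, the list's median log2 ratio of CPM + 1 was -0.44, -0.33 and -0.29 in runs 1, 3 and 4 and 0 in run 2.

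Genes of naive and quiescent T cells rose in part: 5 of 20 tested rose, none fell and 15 did not pass. The median log2 fold change was 0.22, and 2 rose without the run term. The called share was 25%, all of it higher, where 23.2% of all genes were called and 10.7% were higher. Pik3ip1, an inhibitor of PI3 kinase that is lost on activation, had 7.25, 7.05, 6.66 and 6.62 CPM with XCT790, against 3.79, 3.71, 2.77 and 2.78 CPM with stimulation alone. The XCT790 libraries were about level and all above the stimulated ones (log2 fold change 1.09 ± 0.13 SE, edgeR adjusted p = 8.01e-05). Unstimulated libraries averaged 108 ± 6.53 CPM. Tcf7, which encodes TCF-1, averaged 472 ± 48.2 CPM with XCT790 and 368 ± 95.04 CPM with stimulation alone (log2 fold change 0.39 ± 0.10 SE, edgeR adjusted p = 0.0117, and 0.203 without the run term). The quiescence factor gene Klf2, at 44.3 ± 7.59 CPM with XCT790 and 40.8 ± 11.5 CPM with stimulation alone, was not called (edgeR adjusted p = 0.43). Nor was Il7r, the interleukin-7 receptor, at 12.8 ± 3.89 CPM with XCT790 and 13.9 ± 2.57 CPM with stimulation alone (edgeR adjusted p = 0.438). Of 18 T cell receptor and proximal signalling genes 3 rose (none without the run term), a called share of 16.7%. Cd3e, a chain of the receptor complex, averaged 302 ± 29.8 CPM with XCT790 and 253 ± 18.8 CPM with stimulation alone (edgeR adjusted p = 0.012, and 0.0707 without the XCT790 library of run 3). Cd5, a brake on receptor signalling, averaged 758 ± 39.1 CPM with XCT790 and 643 ± 30.6 CPM with stimulation alone (edgeR adjusted p = 0.0136, 0.052 without the same library and 0.0514 without that of run 4). Of 19 inhibitory receptors and anergy genes 2 rose and 1 fell (none and 1 without the run term), a called share of 15.8%. The fall was Cd160, at 6.50 ± 0.817 CPM with XCT790 and 13.1 ± 2.80 CPM with stimulation alone (log2 fold change -1.02 ± 0.18 SE, edgeR adjusted p = 0.00137). Of 18 costimulatory receptors and ligands 3 rose and 4 fell (1 and none without the run term). Tnfsf14, the ligand LIGHT, averaged 16.2 ± 3.78 CPM with XCT790 and 27.1 ± 12.3 CPM with stimulation alone (log2 fold change -0.70 ± 0.16 SE, edgeR adjusted p = 0.00712). Cd40lg, by which helper cells activate B cells, averaged 51.6 ± 6.98 CPM with XCT790 and 66.1 ± 7.03 CPM with stimulation alone (log2 fold change -0.37 ± 0.11 SE, edgeR adjusted p = 0.0244, and 0.0693 to 0.0841 without the XCT790 library of run 2, 3 or 4 or the stimulated library of run 2). Of 14 regulatory T cell markers 1 rose (7.14%). It was Itgae, an integrin, at 4.96 ± 1.55 CPM with XCT790 and 2.16 ± 0.389 CPM with stimulation alone (log2 fold change 1.20 ± 0.22 SE, edgeR adjusted p = 0.00149). Foxp3, their defining factor, averaged 58.1 ± 19.2 CPM with XCT790 and 52.9 ± 19.0 CPM with stimulation alone and was not called (log2 fold change 0.14 ± 0.13 SE, edgeR adjusted p = 0.444).

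Immediate-early genes, which answer the antigen receptor within minutes, had 2 of 20 tested higher and 2 lower (1 and none without the run term). Their called share was 20%, against 23.2% of all genes. Egr1, one of them, had 96.8, 128, 94.4 and 70.8 CPM with XCT790, against 63.6, 85.5, 58.7 and 42.7 CPM with stimulation alone. It was higher with XCT790 in each run, with an overlap between runs (log2 fold change 0.65 ± 0.13 SE, edgeR adjusted p = 0.00309). Myc, the growth regulator, averaged 424 ± 50.8 CPM with XCT790 and 502 ± 62.4 CPM with stimulation alone (log2 fold change -0.24 ± 0.07 SE, edgeR adjusted p = 0.0149, 0.0546 to 0.0731 without the XCT790 library of run 4 or the stimulated library of run 3 or 4, and 0.252 without the run term). The 3 Nr4a genes, themselves such early genes, were not called. Nr4a1 had 331, 367, 207 and 252 CPM with XCT790, against 369, 525, 239 and 247 CPM with stimulation alone. Run 2 was the highest in both groups, which overlapped (log2 fold change -0.23 ± 0.18 SE, edgeR adjusted p = 0.375). Nr4a2 averaged 13.6 ± 0.872 CPM with XCT790 and 13.7 ± 3.67 CPM with stimulation alone (edgeR adjusted p = 0.99). Nr4a3 averaged 60.8 ± 5.57 CPM with XCT790 and 68.6 ± 12.7 CPM with stimulation alone (edgeR adjusted p = 0.321). Of 16 AP-1, BATF and IRF factors 1 rose and 1 fell (none without the run term), a called share of 12.5%. The fall was Irf8, at 206 ± 43.5 CPM with XCT790 and 340.4 ± 62.0 CPM with stimulation alone (log2 fold change -0.72 ± 0.21 SE, edgeR adjusted p = 0.0204, 0.0617 to 0.0721 without the XCT790 library of run 2 or 3 or the stimulated library of run 1 or 3, and 0.0528 without the run term).

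Other stress and survival lists held fewer or mixed calls, near the share of 23.2% over all genes: 26.3% of heat shock, 18.2% of NRF2, 29.4% of p53 and 26.7% of BCL2 family genes were called. Of 19 heat shock genes 3 rose and 2 fell (1 and none without the run term). Hspa4l, a cochaperone of Hsp70, had 62.7, 63.5, 76.6 and 55.8 CPM with XCT790, against 42.1, 45.4, 50.6 and 39.9 CPM with stimulation alone. The XCT790 values all exceeded those of stimulation alone (log2 fold change 0.54 ± 0.08 SE, edgeR adjusted p = 0.000566). The inducible Hspa1a averaged 0.662 ± 0.4 CPM with XCT790 and 0.36 ± 0.138 CPM with stimulation alone and was not called (log2 fold change 0.92 ± 0.65 SE, edgeR adjusted p = 0.331). The NRF2 list had 4 of 22 tested higher and none lower (2 without the run term). G6pdx, of the pentose phosphate pathway, averaged 144 ± 5.48 CPM with XCT790 and 113 ± 7.75 CPM with stimulation alone (log2 fold change 0.35 ± 0.07 SE, edgeR adjusted p = 0.00313). Hmox1, heme oxygenase, averaged 22.3 ± 10.7 CPM with XCT790 and 13.5 ± 7.48 CPM with stimulation alone (log2 fold change 0.73 ± 0.20 SE, edgeR adjusted p = 0.0177, 0.0748 without the stimulated library of run 4 and 0.0611 without the XCT790 library of run 2). The classical target Nqo1 averaged 3.84 ± 2.85 CPM with XCT790 and 3.56 ± 2.36 CPM with stimulation alone and was not called (log2 fold change 0.09 ± 0.38 SE, edgeR adjusted p = 0.89). None of 5 metallothionein and heavy metal genes was called.

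Cyp1a1, the marker gene of the aryl hydrocarbon receptor, had 0.218, 0.239, 0.479 and 0.257 CPM with XCT790, against 1.02, 2.69, 1.93 and 1.81 CPM with stimulation alone. These were low levels, and all XCT790 libraries were lower (log2 fold change -2.59 ± 0.32 SE, edgeR adjusted p = 0.000121). Of 6 genes of this receptor's pathway 2 fell and none rose. Of 17 p53 targets 3 rose and 2 fell (3 and 1 without the run term). Cdkn1a, the inhibitor p21, averaged 96.6 ± 111 CPM with XCT790 and 122 ± 137 CPM with stimulation alone. It was highest in run 2 of both groups and not called (log2 fold change -0.36 ± 0.33 SE, edgeR adjusted p = 0.462). Of 15 BCL2 family genes 1 rose and 3 fell (1 and 1 without the run term). Bcl2l11, the pro-apoptotic BIM, had 135, 151, 138 and 154 CPM with XCT790, against 71.6, 118, 100.2 and 107 CPM with stimulation alone. Run 1 was lowest in both groups, which did not overlap (log2 fold change 0.55 ± 0.10 SE, edgeR adjusted p = 0.00186). Bid, another pro-apoptotic member, averaged 41.5 ± 3.38 CPM with XCT790 and 51.1 ± 3.20 CPM with stimulation alone (log2 fold change -0.30 ± 0.07 SE, edgeR adjusted p = 0.00603). In glycolysis, lactate export and hypoxia 2 of 26 tested rose and 4 fell, a called share of 23.1%, against 23.2% of all genes. None was called without the run term, 1 fell without the XCT790 library of run 3 and 2 without the stimulated one. Ldha, lactate dehydrogenase A, averaged 2364 ± 401 CPM with XCT790 and 3225 ± 493 CPM with stimulation alone (log2 fold change -0.45 ± 0.09 SE, edgeR adjusted p = 0.00318). Vegfa, a hypoxia target, averaged 6.84 ± 0.619 CPM with XCT790 and 3.40 ± 2.26 CPM with stimulation alone (log2 fold change 1.13 ± 0.25 SE, edgeR adjusted p = 0.00453). The glucose transporter gene Slc2a1, at 102 ± 18.2 CPM with XCT790 and 105 ± 15.6 CPM with stimulation alone, was not called (edgeR adjusted p = 0.745).

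**Figure D3:**
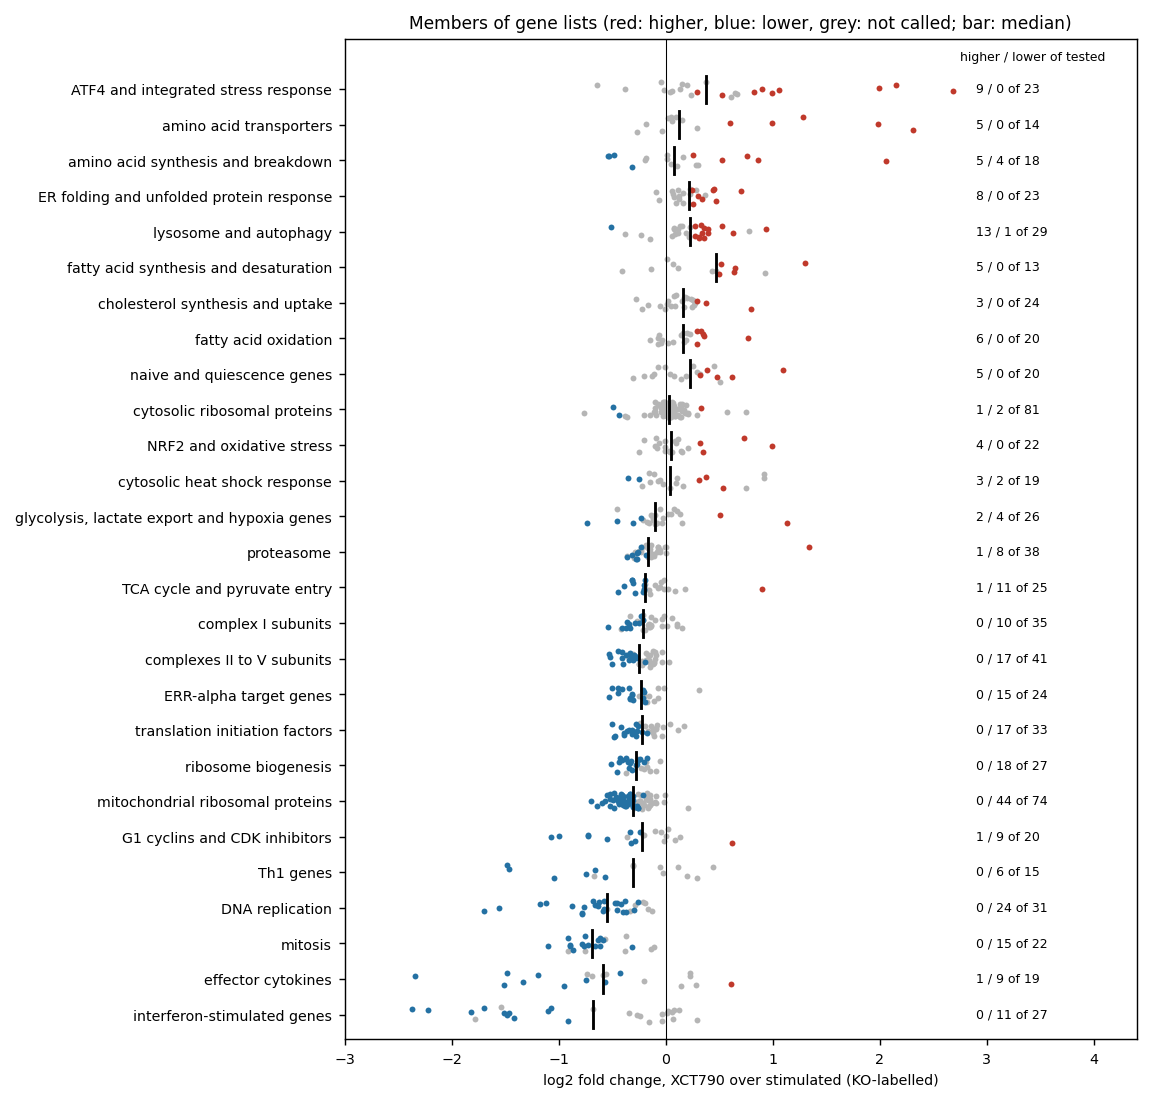
Log2 fold change of XCT790 over stimulation alone (x axis) for each tested member (points) of 27 gene lists (y axis), with the list median as a bar and the number of members higher and lower of those tested at the right. Red and blue points were called; medians of the respiratory chain, mitochondrial ribosomal, ribosome biogenesis and replication lists lie left of 0, and those of the ATF4, lysosome and lipid synthesis lists right of it.

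CompA, given at the same dose for the same time, allows the XCT790 response to be set against that of another compound in the same runs. Of this 1 pair of compounds, 498 genes (4.14% of those tested) were higher and 493 (4.09%) lower with XCT790 than with CompA in the same fit, with p-values adjusted over all 12040 genes (2724 at an unadjusted p of 0.05). Without the run term 249 were called in both directions together. Leaving out in turn the XCT790 libraries of runs 1 to 4 gave 455, 565, 414 and 458 calls, and leaving out the CompA libraries of runs 1, 3 and 4 gave 574, 482 and 397. Each compound was compared with the same 4 stimulated libraries, so the folds over stimulation share those libraries. Cholesterol synthesis and uptake genes differed: 18 of 24 tested were higher with XCT790 than with CompA and none lower. Their median log2 fold change was 0.16 for XCT790 over stimulation and -0.39 for CompA over stimulation. Insig1 had 181, 125, 139.6 and 144 CPM with XCT790, against 74.6, 47.1, 57.9 and 53.6 CPM with CompA. The compounds did not overlap (log2 difference 1.34 ± 0.12 SE, edgeR adjusted p = 3.59e-05). Scd2 had 147, 80.3, 201 and 166 CPM with XCT790, against 31.0, 33.7, 54.5 and 51.1 CPM with CompA. The compounds were apart in each run (log2 difference 1.79 ± 0.19 SE, edgeR adjusted p = 0.000108). The other largest differences toward XCT790 were in Spin4, Maged2 and Rgs2, a regulator of G protein signalling (log2 differences 1.90, 1.42 and 1.32). Of 13 fatty acid synthesis and 23 ER folding genes, 5 and 7 were higher with XCT790 than with CompA.

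In the other direction, Nr4a1 had 331, 367, 207 and 252 CPM with XCT790, against 813, 526, 437 and 473 CPM with CompA. It was higher with CompA in each run (log2 difference -0.97 ± 0.18 SE, edgeR adjusted p = 0.00526). Nr4a3 had 66.6, 53.7, 63.5 and 59.4 CPM with XCT790, against 145, 103, 153 and 111 CPM with CompA. The compounds did not overlap (log2 difference -1.07 ± 0.12 SE, edgeR adjusted p = 0.00014). Hspa1a had 0.273, 1.20, 0.718 and 0.462 CPM with XCT790, against 2.85, 5.13, 5.61 and 10.0 CPM with CompA. All CompA libraries of this heat shock gene were higher (log2 difference -3.18 ± 0.44 SE, edgeR adjusted p = 0.000688). Ifng was lower with XCT790 than with CompA as well (log2 difference -1.02 ± 0.11 SE, edgeR adjusted p = 0.000145). So were Esrra (log2 difference -0.60 ± 0.10 SE, edgeR adjusted p = 0.00261) and 9 of 26 glycolysis and hypoxia genes. Of 24 ERR-alpha target genes, 0 were higher and 0 lower with XCT790 than with CompA. Over the shared stimulated libraries their median log2 fold change was -0.23 for XCT790 and -0.22 for CompA. The largest differences toward CompA were in Alas2, Myo6, Gm14718, Gsn, which encodes the actin-severing protein gelsolin, and Ak4, a mitochondrial adenylate kinase (log2 differences -2.49, -2.22, -1.41, -1.30 and -1.25). Alas2, an erythroid gene, had 0.709, 27.0, 3.59 and 4.16 CPM with XCT790, against 5.58, 159.9, 19.2 and 18.7 CPM with CompA, and run 2 was far above the other runs in both. For the following genes the compounds were not told apart. Trib3 differed by -0.08 on the log2 scale (95% interval -0.54 to 0.38), Chac1 by -0.08 (-0.84 to 0.68) and Pck2 by -0.04 (-0.47 to 0.40). Of the genes that fell, Cycs differed by 0.08 (-0.10 to 0.27), Mrpl47 by -0.04 (-0.22 to 0.14), Eif4e by -0.12 (-0.27 to 0.03) and Cdc6 by -0.20 (-0.52 to 0.12). Of 74 mitochondrial ribosomal proteins 3 differed, and their median was -0.30 for XCT790 and -0.33 for CompA over the shared stimulated libraries.

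**Figure D4:**
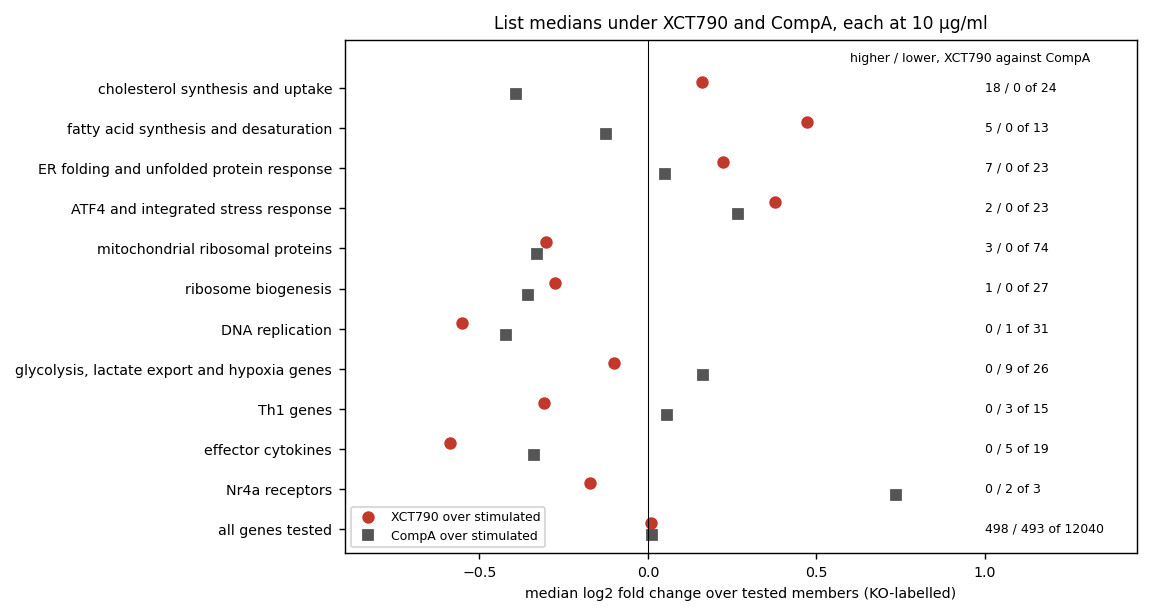
Median log2 fold change over the tested members of 11 lists and over all genes tested (x axis) for XCT790 (red circles) and CompA (grey squares), each at 10 µg/ml over the same 4 stimulated KO-labelled libraries; the numbers at the right count members higher and lower with XCT790 than with CompA. Cholesterol synthesis lies on opposite sides of 0, and mitochondrial ribosomal proteins and ribosome biogenesis lie close together.

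WT-labelled libraries allow the same contrast, and the difference between the genotypes was tested in a fit of all 32 libraries with run within genotype. In WT, 1735 of 12332 genes tested (14.1%) rose and 2935 (23.8%) fell with XCT790. The XCT790 effect was more positive in KO-labelled than in WT cells for 2709 genes (22.0%) and more negative for 1729 (14.0%). Myeloid transcripts moved with XCT790 in WT. On library totals the myeloid list summed to 120 to 180 CPM in WT XCT790 libraries, 727 to 1650 CPM in WT stimulated and 2800 to 4460 CPM in WT unstimulated ones. Of its 25 members 21 had a more positive effect in KO-labelled cells. The largest differences were in such genes, Emr4, Ptgs1, Itgad, Clec4a1 and C6, with mean levels under 1 CPM in KO-labelled cells of both treatments and in WT cells with XCT790, and 10.3 to 71.1 CPM in WT stimulated cells. The part of these cells in the genotype difference was not tested. Genes of naive and quiescent T cells differed too, with a median log2 fold change of 0.245 in KO-labelled cells, against -0.75 in WT. Of 20 tested, 15 had a more positive effect in KO-labelled cells. Their part in the other differences was not tested. No run held both genotypes, so genotype and set of runs cannot be told apart. Mitochondrial and growth genes also differed. In KO-labelled cells the mitochondrial ribosomal list had a median log2 fold change of -0.28, against 0.19 in WT, and 54 of 74 members had a more negative effect in KO-labelled cells. So had 30 of 37 proteasome, 21 of 27 ribosome biogenesis, 20 of 33 initiation factor and 22 of 31 replication genes. The ERR-alpha target list had a median log2 fold change of -0.21 in KO-labelled cells, against 0.10 in WT. Of its 24 tested members 12 had a more negative effect in KO-labelled cells and 0 a more positive one. Mrpl47 differed by -0.65 ± 0.14 SE, edgeR adjusted p = 0.000997, and Cycs by -0.57 ± 0.14 SE, edgeR adjusted p = 0.00257, both on the log2 scale. The largest differences of this sign were in Rpph1, Cks2, Perp, Akr1c18 and Fam195a (log2 differences -1.08 to -0.83). For Rpph1 the KO-labelled stimulated libraries averaged 51.3 ± 49.1 CPM, an SD close to the mean. Trib3 had a log2 fold change of 2.01 in KO-labelled cells and 1.73 in WT (difference 0.28 ± 0.31 SE, edgeR adjusted p = 0.504). That of Chac1 was 2.705 in KO-labelled cells and 3.10 in WT (difference -0.40 ± 0.59 SE, edgeR adjusted p = 0.635). That of Esrra was -0.62 in KO-labelled cells and -0.53 in WT (difference -0.09 ± 0.15 SE, edgeR adjusted p = 0.665). That of Ifng was -1.46 in KO-labelled cells and -1.27 in WT (difference -0.19 ± 0.25 SE, edgeR adjusted p = 0.583). For these 4 genes a difference between the genotypes was not shown.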

How the data were processed

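The authors deposited 1 table per library with unnormalized counts of reads for each gene. Per the submitters' processing notes, the tools were Trimmomatic 0.36, HISAT2 2.1.0, SAMtools, HTSeq 0.9.1, R 3.4.4 and DESeq2 1.18.1, with the mm10 build. Per the labels' protocols, libraries were poly(A)-selected and made with a directional kit. Whether counting used strand is not stated, so genes that overlap an antisense partner are uncertain. The 5 summary lines were left out. In these 8 libraries, 5.31 to 7.30% of uniquely aligned counts (on genes, ambiguous or without a feature) had no feature. Alignments that were not unique came to 58.6 to 75.7 per 100 counts on genes.

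Counts were fitted in edgeR 4.0.16 (R 4.3.3) by quasi-likelihood with TMM scaling, after filterByExpr left 12040 of 24302 genes, over the 16 KO-labelled libraries with treatment and run as terms (9 residual degrees of freedom). A call is a Benjamini-Hochberg adjusted p under 0.05 over all genes tested. The genotype difference came from all 32 libraries, with run within genotype. The run term comes from successive library numbers, not from a stated batch. Same-run XCT790 and stimulated libraries deviated together from their group means (correlation 0.598 to 0.810 in 4 pairs, against -0.569 to 0.281 in 12 pairs of different runs). Deviations from a group mean cancel out within the group. Positive same-run values thus push those of different runs down, which overstates the contrast. Levels are TMM-scaled CPM, errors are SD over 4 libraries and SE of the fitted log2 fold change. Intervals for compound differences are 95% intervals from that SE.

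Genes were named by a rule: the Nr4a genes and Esrra, the 10 largest called rises and falls of at least 10 CPM without overlap, up to 4 called members of each list with the smallest adjusted p, the 5 largest differences each way for the compound and genotype contrasts, and members that complete a pathway. Some genes that the rule names are not reported here. The comparison, the 55 gene lists and the rule were chosen with earlier results of these data known. Coordinates and promoter windows are RefSeq's for GRCm38.p6, and 11991 of the names tested matched its symbols. The fits were checked on simulated counts, drawn from a fitted model with the run term, which cannot test that term. Alternatives were other scalings, filters, tools and sample sets, no run term, and each library left out in turn. Replicates of a group differed by more than sampling noise.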

Additional observations from a re-analysis of the deposited data

Results flagged for a closer look

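In groups of 4 libraries, a library was singled out where its gap to the nearest other, divided by the group's range, exceeded Dixon's critical value. Of 150 groups examined 20 did, and 14 of them concerned run 2. A chance rate of about 1 in 20 would hold for separate groups only. These groups share libraries and some share genes, so the flags are not separate results. In run 2 of the stimulated group the high values were those of Trib3 (gap over range 0.91), Chac1 (0.961), Atf4 (0.947), Cdkn1b (0.898), Zbtb32 (0.834), Rsad2 (0.878) and the erythroid gene Alas2 (0.945, at 236 CPM against 3.79 to 16.7 CPM in the other 3). Alas2 was also high in run 2 of the XCT790 group (0.869). Marker sums were high in run 2 of both groups for CD8 T cells (0.854 with XCT790 and 0.854 with stimulation alone), B cells (0.869 and 0.902) and erythroid cells and platelets (0.854 and 0.939). Alas2 made up most of the erythroid and platelet sum of run 2, so these flags repeat its own. Outside run 2, XCT790 libraries stood apart for Cpt1a (low in run 1, 0.842), Cycs (low in run 3, 0.946), Gzmb (high in run 4, 0.846) and Cyp1a1 (high in run 3, 0.853). Stimulated libraries of run 1 stood apart for Esrra (high, 0.84) and the plasma cell marker sum (low, 0.875). What sets run 2 apart was not tested.

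Of 66 genes with values per library, 29 had an XCT790 effect that differed between KO-labelled and WT cells by the interaction test (edgeR adjusted p under 0.05). Most of these genes were chosen for their effect in KO-labelled cells, and over all genes tested 22.0% differed in the positive and 14.0% in the negative direction. The differences below are KO-labelled minus WT on the log2 scale. It was positive for 14: Abca1 (4.24), Pik3ip1 (4.05), Abcg1 (3.22), Irf7 (2.21), Rsad2 (2.15), Cpt1a (1.72), Ddit3 (1.39), Cdkn1b (1.38), Il16 (1.07), Sec24d (1.06), Pink1 (0.94), Pck2 (0.88), Egr1 (0.76) and Isg20 (0.75). It was negative for 15: Utf1 (-0.70), Mrpl47 (-0.65), Orc1 (-0.63), Chchd10 (-0.63), Ndufa5 (-0.62), Wdr12 (-0.60), Ndufb4 (-0.60), Hspd1 (-0.59), Cycs (-0.57), Idh3a (-0.57), Atp5g3 (-0.56), Eif4e (-0.54), Ccne1 (-0.54), Got1 (-0.47) and Atp5b (-0.47). In WT, myeloid marker sums also differed between XCT790 and stimulated libraries, and their part in these differences was not tested. As no run held both genotypes, genotype and set of runs cannot be told apart.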

How the results depend on the processing

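The count of called genes depended most on the run term (the replicate block). Without it, 1100 genes were called for XCT790 against stimulation in place of 2788, 1390 in a fit of all 32 libraries and 258 in a fit of the 8 libraries alone, and 249 for XCT790 against CompA in place of 991. The genotype difference gave 3049 without it, against 4438, and the WT contrast 3527, against 4670. Of 178 called genes named by the rule, 106 were called without it, 143 with each library left out, and 43 under every alternative tried. Leaving out 1 library gave 1616 (XCT790, run 3) to 2604 calls for the first contrast, 397 to 673 for the second, 3532 to 4921 for the genotype difference and 3564 to 4945 for WT. Other scalings, filters, DESeq2, limma-voom and the 8 libraries with the run term gave 2544 to 3559 calls for the first contrast. Scaling by DESeq2 factors put 38.7% of calls among the rises and library totals 55.1%, against 46.1%, while the median over all tested genes lay between -0.019 and 0.048 on the log2 scale. Leaving out run 2 as a whole gave 2617, and, chosen after seeing the data, 880 for XCT790 against CompA. The cause of these changes was not tested. Levels under 1 CPM rest on few counts, although some changes there were called (Aldh1l2, Cyp1a1).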

Other observations

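Of 6 tested plasma cell markers, some of which T cells also express, 1 was higher and 1 lower with XCT790. Their list summed to 2050 to 2270 CPM with XCT790 and 1430 to 1990 CPM with stimulation alone. None of 4 tested stromal and endothelial markers was called, and their list summed to 17.5 to 32.0 CPM with XCT790 and 14.8 to 27.5 CPM with stimulation alone.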
